A study of Caenorhabditis elegans with 2 samples.

Results

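The nuclear hormone receptor genes of C. elegans that carry an nhr name were examined for regions enriched after immunoprecipitation of DAF-12, itself a nuclear receptor, from larvae at the fourth stage (L4). The members are the protein-coding genes of the Ensembl WBcel235 annotation whose name is nhr- followed by digits. There were 269 of them among 19985 protein-coding genes, which leaves 19716 other genes as the background, and daf-12 is not a member. The rule reads gene names. The study has 1 group of 2 biological replicates of whole worms, both sexes pooled, and no second condition. The worms were strain OP222, which combines the unc-119(ed3) mutation on chromosome III with the transgene insertion wgIs222, and the protein profiled was eGFP-tagged DAF-12. The labels give the age of the animals as unknown, and no source used here states the culture conditions or the promoter of the transgene. The results come from 1 transgenic line, and its control libraries were not analysed here.

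Nuclear receptors are transcription factors with a zinc finger DNA-binding domain and a ligand-binding domain, and many respond to small lipophilic molecules. Nematodes expanded the family far beyond that of insects and vertebrates. A small set of the worm genes has clear counterparts in other animals, and the large remainder, often called supplementary, derives from an ancestor related to HNF4. DAF-12 binds dafachronic acids, steroid hormones that favour reproductive growth over dauer arrest. NHR-8 and NHR-48 are its closest relatives in the worm.

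Each replicate has its own list of regions and the series has a pooled list called on both replicates together, with 30000 regions in the pooled list, 30000 in replicate 1 and 23934 in replicate 2. A region counts here as near a gene when its summit lay within 2 kb of any annotated transcript start. These lists were deposited as input to a reproducibility analysis and hold background as well as peaks, so a region in them is not by itself a binding call. In the pooled list 5.70% of regions had a deposited q-value below 0.05, against 16.7% in replicate 1 and 59.6% in replicate 2. The smallest pooled q-value, a −log10 of 2.08, is shared by 61 regions. The signal of a region is the authors' own enrichment value on a scale set within its list, so ranks (1 for the largest signal) are given beside it, and signals are not compared between lists. Read depth is unknown, and a pooled value carries no replicate error. Because whole worms were used, a strong region in few cells and a weak region in many cannot be told apart.

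The nhr genes had regions near their starts about as often as other protein-coding genes. A pooled region lay near 201 of the 269 nhr genes (74.7%), against 74.5% of the other genes. In replicate 1 the count was 212 (78.8%), against 75.0% of the others, and in replicate 2 it was 184 (68.4%), against 66.7%. Both replicates had a region near 154 nhr genes (57.2%), against 52.5%, but the regions of the replicates overlapped each other, by at least 1 bp, at 60 nhr genes (22.3%), against 20.7%. A pooled region with a q-value below 0.05 lay near 25 nhr genes (9.29%), against 7.30%. The combination of overlapping replicate regions and such a pooled region was found at 13 nhr genes (4.83%), against 4.77%. The conditions may be met at different places of a gene, as at nhr-40 and nhr-274, whose strongest pooled region had no replicate 2 region over it. No peak of the list thresholded for reproducibility lay near any nhr gene, and 0.147% of the other genes (29 genes) had one. That list holds only 48 peaks, 27 of them mitochondrial, and the other genes include mitochondrial ones. A list this short reaches few genes of any kind. The shares above are descriptions, and no test of the difference was run.

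**Figure D1:**
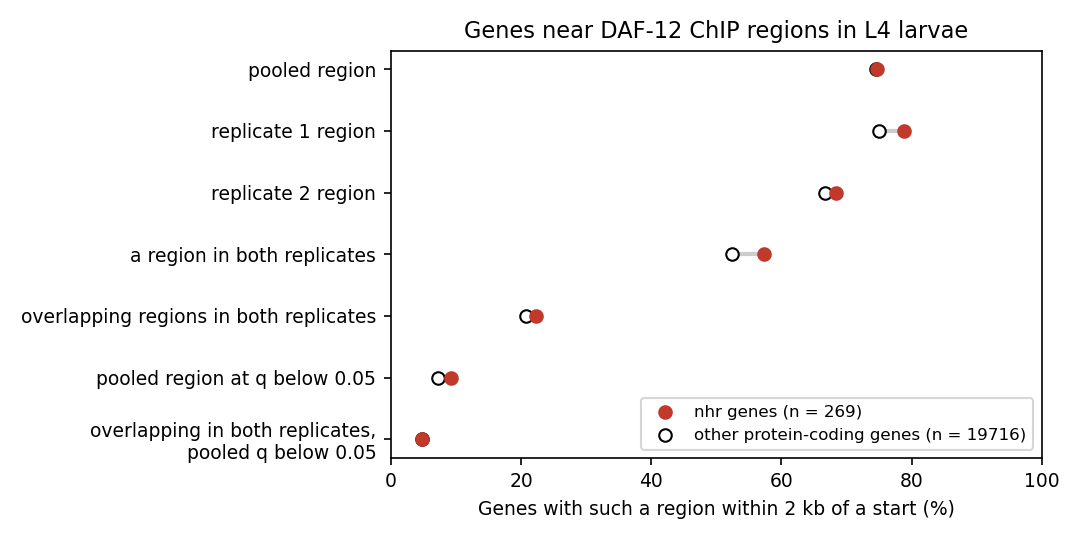
Share of genes (x axis, %) with each kind of region within 2 kb of a start (y axis) for nhr genes (filled) and the other protein-coding genes (open). The points lie close together in every row, with 74.7% against 74.5% for a pooled region and 4.83% against 4.77% for overlapping replicate regions with a pooled q-value below 0.05.

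Where a region was present its strength was also similar. The largest pooled signal near an nhr gene had a median of 6.90 (middle 50% from 5.80 to 8.57) over 201 genes, and 6.55 (5.34 to 8.19) over 14680 other genes. In replicate 1 the medians were 4.97 and 4.85, and in replicate 2 they were 3.34 and 3.36. The strongest nhr regions ranked 220 in the pooled list, 129 in replicate 1 and 122 in replicate 2, so the first 100 regions of each list included none near an nhr gene. Those 100 regions reached few genes at all, with 0.39% of other genes in the pooled list and in replicate 1, and 0.43% in replicate 2. The first 1000 pooled regions reached 15 nhr genes (5.58%, against 4.29% of other genes). The same depth reached 20 in replicate 1 (7.43% against 4.52%) and 12 in replicate 2 (4.46% against 4.55%). Genes with a region had a mean of 1.95 pooled regions for nhr and 1.87 for the others.

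Among themselves the nhr genes differed by the number of annotated starts. Of 167 nhr genes with 1 start, 65.3% had a pooled region, against 71.5% of other genes with 1 start. Of 102 nhr genes with 2 or more starts, 90.2% had one, against 82.4%. In each replicate taken over all chromosomes the nhr share was also lower at 1 start and higher at 2 or more. With 1 start the shares were 70.1% against 72.3% in replicate 1 and 59.9% against 63.7% in replicate 2. With 2 or more starts they were 93.1% against 82.4% and 82.4% against 74.7%. Overlapping replicate regions were present at 13.8% of nhr genes with 1 start (other genes 18.7%) and at 36.3% of those with more (other genes 26.2%). A gene with 1 start is searched over 4001 bp, and genes with more over a median of 4526 bp for nhr and 4661 bp for the others. The part of this length in the shares was not tested. The nhr genes are more often annotated with several starts, since 62.1% have 1 start against 72.7% of the others. Off chromosome V the difference at 1 start was larger in the pooled list (59.7% of 62 nhr genes, against 71.8%) and of the other sign in replicate 2 (66.1% against 63.9%). On V at 1 start it was of the other sign in replicate 1 (73.3% against 71.5%). For a pooled region with a q-value below 0.05, nhr genes with 1 start stood above the others (7.19% against 6.31%), as did those with more (12.7% against 9.94%).

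Most of the family lies on chromosome V, with 167 genes, followed by IV with 33, I and X with 23 each, II with 15 and III with 8. On V a pooled region lay near 125 genes (74.9%, against 72.8% of other genes on V). The replicates stood on opposite sides of the background there, at 80.2% against 73.9% in replicate 1 and 62.9% against 65.3% in replicate 2. Chromosome II had the highest pooled share (13 of 15 genes, against 70.7%) and chromosome I the lowest (15 of 23, against 73.7%). The 25 nhr genes near a pooled region with a q-value below 0.05 were 15 on V (8.98%, other genes there 6.59%), 4 on X (17.4% and 9.12%), 3 on II (3 of 15 genes, and 6.26%) and 3 on IV (9.09% and 7.30%). Chromosomes I and III had 0 of 23 and 0 of 8, where 7.18% and 7.79% of other genes had one.

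Many of the genes on V stand in dense groups, and there the replicates differed. For nhr genes with no other nhr gene's 5' end within 10 kb, of which 46 are on V, the shares with a region were 73.9% in replicate 1 and 76.5% in replicate 2. For 88 genes with 1 or 2 such neighbours they were 83.0% and 68.2%. For 62 genes with 3 or more, of which 61 are on V, they were 82.3% and 53.2%. Overlapping replicate regions were present at 24.4%, 27.3% and 11.3% of these classes, against 20.7% of all other genes. Genes outside the family within 10 kb of a member of the first class had regions at 73.3% in replicate 1 and 68.1% in replicate 2 (379 genes). Near the middle class the shares were 73.8% and 68.02% (172 genes), and near the densest class 78.4% and 58.8% (51 genes). The gap between replicates was thus widest in the densest class for members, and beside it for neighbours. The 2 sets are not separate observations, because a region can lie near a member and a neighbour. In the pooled list 88 of the 350 nhr regions lay also near a gene outside the family.

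**Figure D2:**
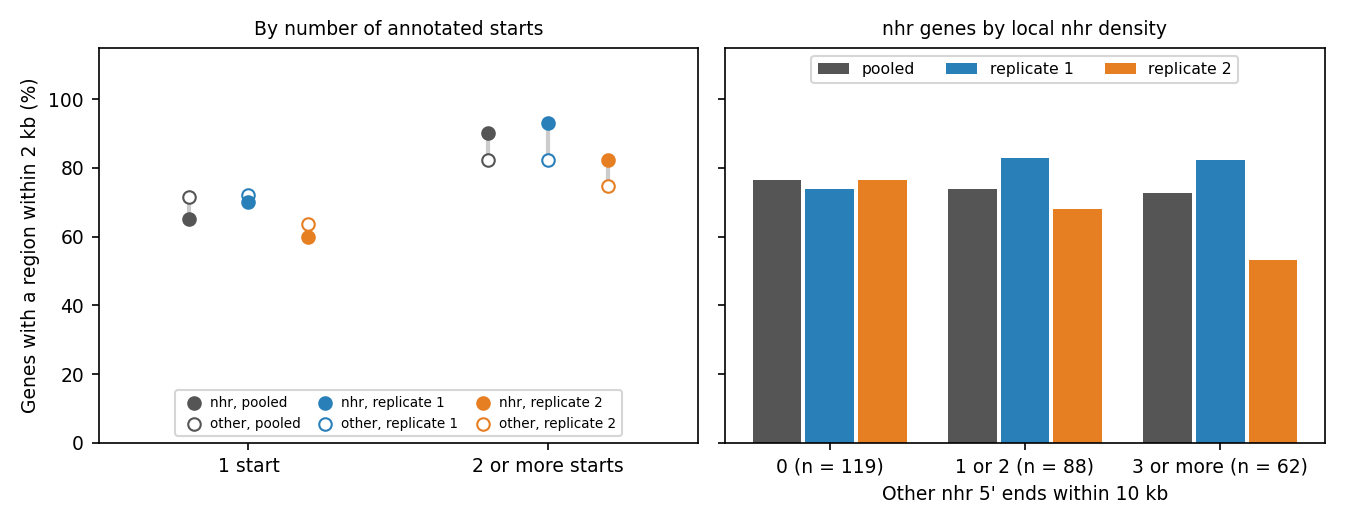
Share of genes (y axis, %) with a region within 2 kb, by number of annotated starts for nhr (filled) and other genes (open), and, for nhr genes alone, by the number of other nhr 5' ends within 10 kb (bars). The nhr points lie below the others at 1 start and above them at 2 or more in each list, and the replicate 2 bar drops from 76.5% to 53.2% with density.

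The nhr gene with the strongest pooled region was nhr-68 (WBGene00003658, chromosome V, 11573440 to 11575709), a regulator of the genes that break down propionate when vitamin B12 is low. Its region (11576395 to 11576698) had a pooled signal of 13.7 (rank 220), with 9.25 (rank 602) in replicate 1 and 3.22 (rank 9789) in replicate 2 at the same place. The summit was intergenic, 1514 bp downstream of the nearest nhr-68 start and past the end of the gene. With 7 pooled regions near its starts, nhr-68 had the most of any member. Of the 154 nhr genes with a region in both replicates, it was also the 1 with a region among the first 1000 of each. Among 10331 other nuclear genes with a region in both, 72 had this. The best replicate 2 region of nhr-68 (signal 6.97, rank 323) lay elsewhere, however, 1473 bp upstream of a start, and had no replicate 1 region over it.

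The next regions were at nhr-47, nhr-40, nhr-156, nhr-274 and nhr-111. The nhr-47 region (pooled signal 13.3, rank 274) had its summit 21 bp downstream of the start, in the 5' UTR, and ranked 4020 in replicate 1 and 9915 in replicate 2. The nhr-40 region (13.1, rank 309) lay in an intron 155 bp upstream of an internal start. NHR-40 acts in muscle development. This region was the strongest nhr region of replicate 1 (signal 11.99, rank 129) and had no counterpart in replicate 2. The nhr-156 region (13.1, rank 311, intergenic, 796 bp upstream) and the nhr-274 region (12.9, rank 347, in an intron) likewise ranked 264 and 660 in replicate 1 and had none over them in replicate 2. The nhr-111 region (12.5, rank 427) lay 695 bp upstream of the gene and ranked 4560 in replicate 1 and 2889 in replicate 2.

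The remaining members among the 20 of largest pooled signal, or with both a q-value below 0.05 and overlapping replicate regions, were mostly on V. So is the family as a whole, with 167 of 269 genes there. nhr-132 (11.7, rank 682) ranked 1525 and 9367 in the replicates, but its summit was nearer to the start of C14C6.5, at 318 bp. nhr-123 (11.4, rank 797, 332 bp upstream) ranked 25852 and 19996, so its pooled rank stood far above both. nhr-183 (10.7, rank 1156, in an intron) ranked 805 and 16972. nhr-31, required for the form of the excretory cell, had a signal of 10.5 (rank 1270) in an intron on chromosome IV, with ranks of 663 and 6779. nhr-257 on chromosome II (12.1, rank 571, in a coding exon) ranked 8288 in replicate 1, nhr-131 (10.8, rank 1113, 665 bp upstream) ranked 3297, and neither had a replicate 2 region over it. Over all 22 genes chosen in this way, 14 on V, the strongest pooled region overlapped a replicate 1 region at 21, a replicate 2 region at 13 and both at 12. Its summit was intergenic at 8, in an intron at 6, in a coding exon at 6 and in a UTR at 2. The overlap counts restate the choice in part, since nhr-183 and nhr-31 entered only through the rule on overlapping regions. The region shared by nhr-136 and nhr-153 counts for each of them. Among other genes with a q-value below 0.05, the overlap shares were 92.8% in replicate 1, 63.7% in replicate 2 and 57.2% in both.

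Stretches of 71 bases at or beside the summits, on the plus strand of ce11 and read from the RefSeq genome of the WBcel235 assembly, are shown for the 3 strongest members and for the 6 nhr regions with a pooled q-value below 0.05 that hold a DAF-12 half-site hexamer within 100 bp of the summit. Capitals mark the hexamer, AGTGCA or AGGACA, which reads TGTCCT where AGGACA is on the minus strand. The first 3 stretches are centred on the summit, and no hexamer lies within 100 bp of it. The other 6 are placed to show the hexamer, which lies 36 to 71 bp from the summit, and do not include the summit itself. The nhr-273 region was added after its values were seen.
nhr-68, chrV:11576512-11576582: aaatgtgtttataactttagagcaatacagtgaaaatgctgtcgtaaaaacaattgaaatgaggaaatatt
nhr-47, chrV:5505239-5505309: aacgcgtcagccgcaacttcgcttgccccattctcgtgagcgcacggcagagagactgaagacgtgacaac
nhr-40, chrX:2599218-2599288: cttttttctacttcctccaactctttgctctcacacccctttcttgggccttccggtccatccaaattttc
nhr-59, chrV:2278762-2278832: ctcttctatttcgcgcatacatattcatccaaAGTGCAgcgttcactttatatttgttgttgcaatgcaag
nhr-202, chrV:462414-462484: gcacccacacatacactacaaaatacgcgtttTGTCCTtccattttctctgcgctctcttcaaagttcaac
nhr-109, chrII:4432320-4432390: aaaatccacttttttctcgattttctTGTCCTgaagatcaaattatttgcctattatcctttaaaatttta
nhr-143, chrV:8974795-8974865: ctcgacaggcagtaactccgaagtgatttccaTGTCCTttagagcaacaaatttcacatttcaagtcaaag
nhr-3, chrX:14559625-14559695: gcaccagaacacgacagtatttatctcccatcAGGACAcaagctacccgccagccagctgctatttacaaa
nhr-273, chrII:4434142-4434212: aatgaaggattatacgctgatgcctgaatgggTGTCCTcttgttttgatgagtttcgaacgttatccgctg

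Half-site hexamers were about as frequent at nhr regions as at regions near other genes. Both strands were searched within 100 bp of the summit, and a window counted once whichever hexamer it held. Of 350 pooled regions near nhr starts, 46 held AGTGCA or AGGACA (13.1%), against 11.1% of 19880 nuclear regions near other protein-coding starts. AGTGCA was present at 26 (7.43% against 6.97%) and AGGACA at 20 (5.71% against 4.45%). AGGTCA, a half-site used by many nuclear receptors, was present at 15 (4.29% against 4.92%). Both sets had a median GC content of 32.8% in this window. Among the regions with a q-value below 0.05, 6 of 26 near nhr starts held AGTGCA or AGGACA (23.1%, against 11.9% of 1108 near other genes), 5 of them AGGACA. This count is small and was not tested. A direct repeat of half-sites with a spacer of 0 to 8 bp was found in none of the 350 windows and in 19 of the 19880. A hexamer match describes the letters of the window and does not show a site of the factor.

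Several of the strongest regions lay in or near other genes. The nhr-59 region (pooled signal 12.1, rank 554) lay in a coding exon of the neighbouring gene fbxa-137, 21 bp from its start and 572 bp upstream of nhr-59. The nhr-109 region (11.1, rank 961) lay in a coding exon of toe-1, 947 bp upstream of the nearest nhr-109 start. The nhr-273 region (rank 1685) lay in a coding exon of nhr-109, and nhr-136 and nhr-153 share 1 region (10.9, rank 1053), which holds no half-site hexamer, in a coding exon of nhr-153. At nhr-202 the region (pooled signal 11.1, rank 942) was intergenic, 196 bp upstream of a start. At nhr-143 (11.01, rank 985) it lay in an intron 173 bp downstream of the start, and at nhr-3 (10.8, rank 1095) in a coding exon 1120 bp downstream. The nhr-143 and nhr-3 regions ranked 2155 and 425 in replicate 1 and had no replicate 2 region over them, while that of nhr-202 ranked 3212 and 21264. Over the family, 41 of the 350 regions lay near 2 nhr genes, 88 (25.1%) lay also near a gene outside the family, and 310 (88.6%) had an nhr start as the nearest protein-coding start. Counted by nearest start alone, 177 nhr genes had a pooled region. None of these family counts was made for other genes, so whether they are particular to nhr genes is unknown.

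Signals near nhr genes showed little relation between the replicates. Over the 154 nhr genes with a region in both, the largest signals had a Spearman rho of 0.0147 and, on the log2 scale, a Pearson r of 0.00781, as a description across genes that share libraries. Over 10331 other nuclear genes rho was 0.0724. The 6 nhr genes with the strongest regions in replicate 1 were nhr-40, nhr-156, nhr-118, nhr-26, nhr-109 and nhr-273, and 5 of these regions had no replicate 2 region over them. That at nhr-109 had one, at rank 20607. In replicate 2 they were nhr-222 (signal 8.15, rank 122, 403 bp upstream), nhr-272 (7.85, rank 145), nhr-57 (7.83, rank 147), nhr-249 (7.34, rank 231), nhr-105 (7.03, rank 302) and nhr-68. None of these 6 regions had a replicate 1 region over it. The strongest regions near other genes were not counted in this way, and overlapping replicate regions were present at 20.7% of other genes. Of the 10331 other nuclear genes, 673 had a region in the first 1000 of replicate 1, 732 in replicate 2 and 72 in both. For the 154 nhr genes these counts were 17, 10 and 1. In the pooled list the place of the nhr-222 region ranked 16900 and that of the nhr-272 region 28455.

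The strongest pooled region of an nhr gene overlapped a replicate 1 region more often than a replicate 2 region. Of 201 genes, 84 had an overlap in replicate 1 alone (41.8%, other genes 44.6%), 43 in replicate 2 alone (21.4% and 20.5%), 57 in both (28.4% and 21.9%) and 17 in neither (8.46%, and 1908 of the 14680 other genes). Among the 25 genes with a q-value below 0.05, 24 of the regions (96.0%) overlapped one in replicate 1 and 13 (52.0%) one in replicate 2, against 92.8% and 63.7% for other genes. The exception in replicate 1 was nhr-181, whose region ranked 722 in the pooled list and 1428 in replicate 2.

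**Figure D3:**
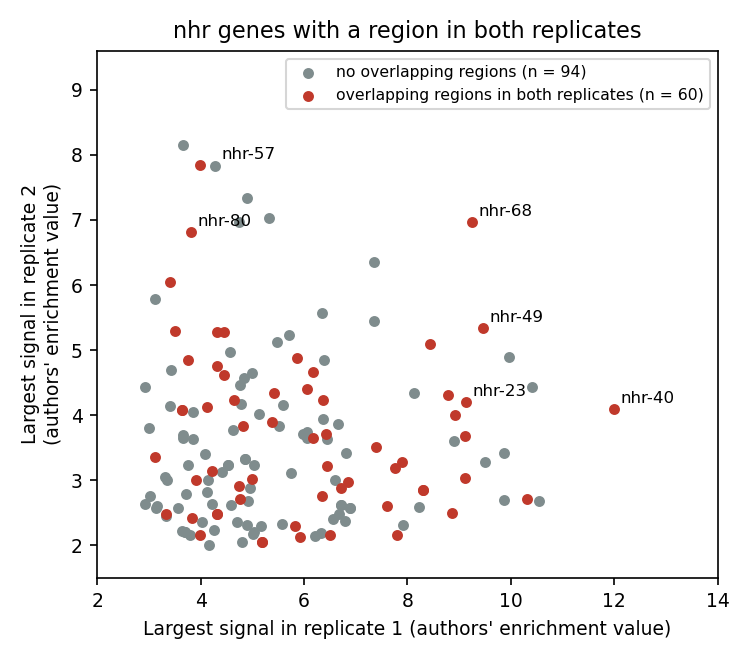
Largest signal within 2 kb of a start in replicate 1 (x axis) and replicate 2 (y axis), each the authors' enrichment value, for the 154 nhr genes with a region in both, in red where regions of the replicates overlap (60 genes). The points spread along both axes with no common trend. The overlapping regions need not be the ones plotted, and nhr-68 (9.25 and 6.97) stands high on both axes through regions at different places.

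The receptors conserved across animals all had a pooled region, with signals from 5.08 to 12.5. The 11 conserved nhr genes had a region near a start in 11 of 11 cases in the pooled list and in replicate 1 and in 9 in replicate 2, and overlapping replicate regions at 4 (nhr-23, nhr-48, nhr-91 and nhr-111). The other 258 nhr genes had pooled regions at 73.6% and overlapping ones at 21.7%. Among genes without an nhr name, 75.0% had a region in replicate 1 and 66.7% in replicate 2. Of the 11 conserved genes 8 have 2 or more starts. In that class 90.2% of nhr genes had a pooled region, 93.1% one in replicate 1 and 82.4% one in replicate 2. A q-value below 0.05 was reached at 2 conserved genes, nhr-91 and nhr-111 (18.2%, against 8.91% of the rest). The median largest pooled signal was 6.90 for the conserved genes and 6.895 for the rest. The conserved genes have a mean of 2.73 annotated starts, against 1.66 for the rest, and 1 of them lies on V. The part of the number of starts was not tested beyond the split given above.

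The closest relatives of DAF-12 had pooled signals near the family median of 6.90. nhr-8, which acts in drug resistance and in sterol and dafachronic acid metabolism, had a pooled signal of 6.90 (rank 8641) and 3.53 in replicate 1, with no region in replicate 2. Its strongest pooled region had no replicate region over it. nhr-48 had a pooled signal of 6.20 (rank 12099), 182 bp upstream of a start, and that region overlapped one in each replicate, at ranks 14955 and 6560. Its largest replicate 1 region (signal 6.43, rank 3881) lay elsewhere, 1782 bp upstream of a start.

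The receptors that act in moulting and developmental timing (nhr-23, nhr-25, nhr-41, nhr-67, nhr-85 and nhr-91) had pooled regions in 6 of 6 cases, with signals from 5.08 to 10.9. Of these genes 5 have 2 or more starts, a class in which 82.4% of other genes and 90.2% of nhr genes had a pooled region. A q-value below 0.05 was reached by nhr-91 alone, a relative of vertebrate GCNF, with a pooled signal of 10.9 (rank 1014) at 1204 bp upstream, 7.76 in replicate 1 (rank 1653) and 3.19 in replicate 2 (rank 10007). nhr-23, the ROR homologue required for moulting, had a pooled signal of 8.30 (rank 4232) at 364 bp upstream. Its region ranked 654 in replicate 1 (signal 9.14) and 19718 in replicate 2 (signal 2.28). nhr-25, a relative of Ftz-F1 and SF-1 with roles in the epidermis and moulting, had 8.57 (rank 3626) in the pooled list and 5.57 in replicate 1, with no replicate 2 region over it. nhr-41, a relative of the vertebrate testicular receptors, had its best region in replicate 2 (signal 5.79, rank 1012) and none over it in replicate 1. nhr-67, the tailless homologue, had a pooled signal of 6.72, with a region in replicate 1 and none in replicate 2. nhr-85, the Rev-erb homologue that acts with NHR-23 on timing microRNA genes, had the weakest pooled region of this group (5.08, rank 20172).

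Among the conserved genes outside that group, nhr-111 had the largest pooled signal, given above. nhr-239 had 8.20 (rank 4464) and nhr-6, the NR4A homologue needed for spermatheca development, had 6.66 (rank 9713). At both, the strongest pooled region overlapped a replicate 1 region and no replicate 2 region.

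Receptors of lipid and nutrient metabolism had the highest share of genes with overlapping replicate regions among the 6 lists examined. Of 12 genes, 11 had a pooled region, 8 had overlapping regions in both replicates and 2 (nhr-68 and nhr-66) had a q-value below 0.05, against 74.5%, 20.7% and 7.30% of other genes. Their pooled signals ran from 6.90 to 13.7 with a median of 8.57, against 6.55 over other genes. This list was composed with earlier results of these data known, 10 of its 12 genes have 2 or more annotated starts, and no test was run. Among all nhr genes with 2 or more starts, 90.2% had a pooled region and 36.3% overlapping replicate regions. In that class the median largest pooled signal was 7.34 for nhr genes and 6.88 for other genes. nhr-49, which drives fatty acid oxidation and desaturation genes, had a pooled signal of 9.77 (rank 1887) in an intron, 640 bp upstream of a start. That region had a signal of 8.75 in replicate 1 (rank 858) and 5.33 in replicate 2 (rank 1576), and nhr-49 has 6 annotated starts. nhr-80, which promotes fatty acid desaturase expression, had 9.775 (rank 1883) at 488 bp upstream, with 3.82 in replicate 1 (rank 18394) and 6.82 in replicate 2 (rank 374). The summit there was nearer to the start of H10E21.1, at 415 bp.

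nhr-66, a partner of NHR-49 in the control of lipid genes, had a pooled signal of 11.9 (rank 629) in its 5' UTR, and lower ranks of 16716 and 9903 in the replicates. nhr-69, an HNF4-like receptor, had 9.26 (rank 2451) at 850 bp upstream, with overlapping regions at ranks 10482 and 5918. nhr-114, which protects against tryptophan toxicity through diet-dependent metabolism, had 7.65 (rank 5963) at 143 bp upstream and ranked 3854 and 9757. nhr-62, needed for longevity under dietary restriction, had 7.27 and nhr-64 had 7.32, both with overlapping replicate regions near a start. nhr-13, which partners NHR-49, had 7.27 with no replicate 2 region over it. nhr-10, a partner of NHR-68 in the propionate response, had no pooled region and signals of 5.18 in replicate 1 and 2.30 in replicate 2.

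Receptors of xenobiotic, stress and metal responses form a short list that shares nhr-8 and nhr-49 with the one before. Of 7 names listed, 6 matched the annotation, and nhr-33 was not used here. All 6 had a pooled region, 4 had one in replicate 1 and 5 in replicate 2, 2 had overlapping replicate regions (nhr-49 and nhr-86), and 0 had a q-value below 0.05. The shares of other genes were 74.5%, 75.0%, 66.7%, 20.7% and 7.30% in the same order. nhr-57, a hypoxia-induced target of HIF-1, had a pooled signal of 8.88 (rank 3049) at 393 bp upstream. It ranked 147 in replicate 2, among the strongest nhr regions there, and had no replicate 1 region over it. nhr-14, which acts in iron homeostasis, had 7.99 and no region near a start in replicate 1. nhr-176, which responds to the anthelmintic thiabendazole, had 5.99 and no region in replicate 1 either. nhr-86, a receptor of pathogen-derived cues, had 5.86 (rank 14137) with 1 half-site hexamer near the summit.

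**Figure D4:**
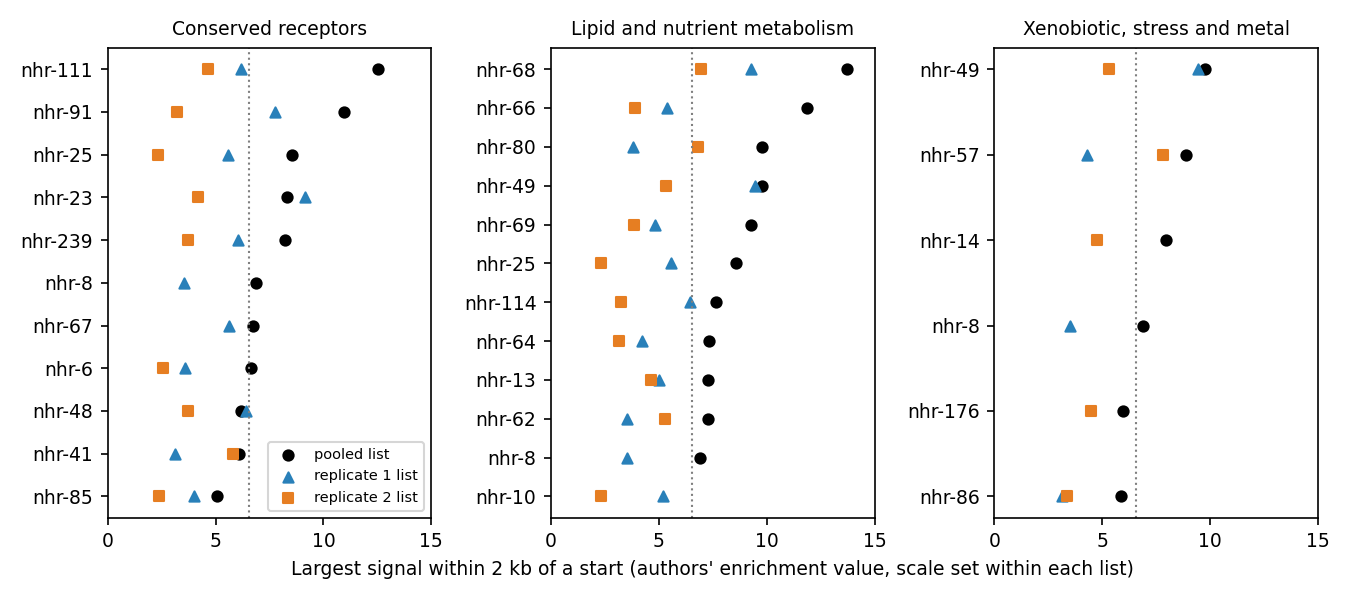
Largest signal within 2 kb of a start (x axis, the authors' enrichment value on a scale set within each list) for the genes of 3 lists (y axis), in the pooled list (circles), replicate 1 (triangles) and replicate 2 (squares). The dotted line is the pooled median of other genes, 6.55; nhr-68, nhr-111 and nhr-66 stand farthest to the right, and a missing symbol means no region.

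The other nuclear receptor genes and the genes around the hormone give a scale for these values. The 5 receptors without an nhr name all had a pooled region (other genes 74.5%). daf-12, the tagged gene, had a signal of 19.4 (rank 52), above every nhr gene, and unc-55, the COUP-TF homologue, had 11.1 (rank 957). sex-1, odr-7 and fax-1 had 6.02, 6.32 and 4.48. Among 11 genes of hormone supply and cofactors, 9 had a pooled region, 4 had overlapping replicate regions and 2 had a q-value below 0.05, beside 74.5%, 20.7% and 7.30% of all genes without an nhr name. These 2 were din-1, a DAF-12 cofactor gene (22.7, rank 37), and mdt-15, a Mediator subunit gene that works with NHR-49 (10.04, rank 1652). No nhr gene reached the signal of din-1 or daf-12. These 2 genes are searched at more places than most, with 9 starts and 14 pooled regions at daf-12 and 6 and 10 at din-1. The nhr genes with a region had a mean of 1.95 pooled regions. The part of these numbers, or of the transgene at daf-12, in the signals was not tested.

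Summits were spread over the window around nhr starts much as around other starts. Of 391 pairs of an nhr gene and a pooled region, 210 (53.7%) had the summit upstream of the nearest start, against 53.0% of 27405 pairs for other genes, and the median distance was 921 bp against 918 bp. The 500 bp just upstream held the most pairs for both (17.1% and 16.2%). The 500 bp just downstream held 10.5% for nhr genes and 12.8% for others in the pooled list and 9.26% and 12.9% in replicate 1, but 16.6% and 13.4% in replicate 2. Of the 350 summits, 40.9% were intergenic, 33.4% lay in introns, 19.1% in coding exons, 4.29% in 5' UTRs and 2.29% in 3' UTRs. At regions near other genes the shares were 37.0%, 35.1%, 20.3%, 2.35% and 5.196%.

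**Figure D5:**
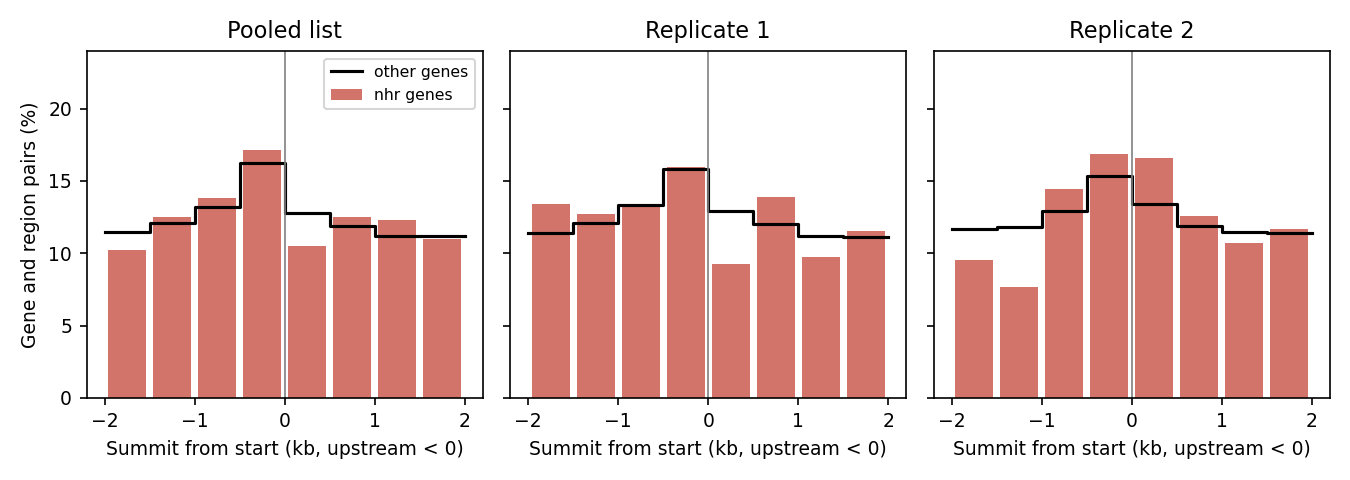
Share of gene and region pairs (y axis, %) by the signed distance of the summit from the nearest start (x axis, kb, negative upstream) in bins of 500 bp, for nhr genes (bars) and other genes (line). Both have their highest bin just upstream of the start in each list, and the bin just downstream lies below the line in the pooled list and replicate 1 and above it in replicate 2.

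Of the 68 nhr genes with no pooled region within 2 kb, 54 had one within 5 kb, and the median distance to the nearest was 3120 bp. The farthest was nhr-244, on chromosome I, at 20696 bp. At 17 of the 68 both replicates nevertheless had a region near a start, and 22 nhr genes had none in any of the 3 lists. Neither count was made for other genes. With a limit of 5 kb, 255 of the 269 nhr genes and 18603 of the 19716 other genes had a pooled region. Just inside the limit of 2 kb were nhr-163 (1804 bp), nhr-145 (1808 bp) and nhr-12 (1938 bp), with pooled signals of 4.86, 5.87 and 4.75. Just outside were nhr-107 (2003 bp), nhr-125 (2067 bp) and nhr-243 (2069 bp).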

How the data were processed

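DAF-12 ChIP-seq regions of whole L4 larvae were taken from the deposited ce11 lists: 1 per replicate, 1 pooled and 1 thresholded for reproducibility. Per the text lists deposited with the samples, the replicate and pooled lists derive from alignments and a control, and the thresholded list from the other 3. No source used here names the aligner, the peak caller or the thresholds. The deposited signal per region is the authors' enrichment value, and the deposited −log10 q-value is theirs too. Summits are column 2 + column 10 + 1, and in 97.9% or more of each list they are the region's midpoint.

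Starts came from Ensembl release 115 (WBcel235), whose coordinates are those of ce11, and sequence from the RefSeq genome of that assembly. In the 4 lists, 0 regions ran past a chromosome end. Genes were joined to summits within 2000 bp of any transcript start, and the joins were tested on simulated data. Ranks are by signal within a list. With 1 group and 2 replicates, shares and medians are described and no test was run. Regions are not independent, and the lists do not give depth.

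Members and gene lists were chosen with earlier results of these data known. Named genes were the 20 nhr genes of largest pooled signal, those with overlapping replicate regions and a pooled q-value below 0.05, the genes of the lists, and 3 on each side of the distance limit. Neighbours within 10 kb, the split by number of starts and the strongest regions of each replicate were added after seeing the data. Python 3.11.15, numpy 2.4.6, pandas 2.3.3, scipy 1.17.1 and matplotlib 3.10.9 were used.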

Additional observations from a re-analysis of the deposited data

How the results depend on the processing

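Of 46 alternative values, 25 moved by less than the spread between replicates or, for counts, by less than 1.5 times, 19 moved further and 2 changed sign. For the median signal this spread was 1.15, taken between 2 lists with their own scales. Whether that median moved by less than the spread therefore does not measure its stability. The difference between nhr and other genes near a pooled region, 0.264 percentage points, became -0.485 without chromosome V, -6.23 for genes with 1 start, 7.84 for genes with 2 or more starts and 4.48 with the top 10000 pooled regions, which reached 110 nhr genes. With 1 replicate left out it ran from 1.70 to 3.80 points, and the median largest signal ran from 3.34 to 4.97 on the scales of those lists. That median was 8.32 in the top 10000. Starts within 1000 bp gave 87 nhr genes near a region in both replicates and 35 with overlapping regions, and an nhr start was nearest at 94.2% of the regions. Starts within 5000 bp gave 243, 120 and 62.7%, and 54 genes at a q-value below 0.05. At a q-value below 0.01 there were 0 nhr genes and 37 others. That limit lies close to the largest pooled −log10 q-value, 2.08. Half-sites were present at 5.43% of nhr regions within 50 bp (others 5.42%), at 22.0% within 200 bp (others 21.6%), and at 13.9% to 14.6% with 1 replicate left out. The wider or narrower limits and windows change these counts by construction, and the cause of the other changes was not tested. No nhr gene was near a thresholded peak at any distance tried. Within 5000 bp, 52 of the 19716 other genes were. Counts that need both replicates could not be recomputed with 1 left out. The split by number of starts was added after seeing the data. No paired analysis was possible because all samples belong to 1 group. The lists hold no read counts, so the limits set by depth are unknown.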

Other observations

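Direct repeats of half-sites were also searched in a wider window. Within 200 bp of the summit, 1 of the 350 nhr regions held one, against 30 of 19880 regions near other genes. It lay at nhr-85 on chromosome I (13062739 to 13062757), with a spacer of 7 bp, 127 bp from the summit of a region that ranked 20172. In replicate 2 alone, AGGTCA was present within 100 bp at 22 of 301 nhr regions (7.31%), against 4.91% of 15909 regions near other genes, while in replicate 1 it was at 4.27% of 375 against 4.86% of 19782. No test of these differences was run.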
